A study of Homo sapiens with 6 samples.

Results

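The cyclins, the cyclin-dependent kinases (CDKs), the CDK inhibitors, the E2F factors with their RB, DP and MuvB partners, and the kinases, phosphatases and ligase adaptors that act on CDKs were followed in RNA of T47D, a luminal cell line derived from human breast carcinoma. The genes were chosen by symbol from the count table: 51 of its 58735 genes, each found once, and 50 of the 51 passed the filter on low counts that left 17337 genes for testing. The exposed group is 3 libraries coded CQ, taken as cells exposed to fine airborne particulate matter (PM2.5), and the reference is 3 control libraries coded CK. That the treatment was PM2.5 is read from the series title and from a protocol that places extraction at 48 h of exposure and is worded alike for both groups. No source used here gives the dose, the particle source or the vehicle. All libraries come from 1 cell line, and the replicates are called biological without a statement that they were separate cultures, so p-values measure only the spread between these samples.

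CDKs are active only when bound to a cyclin. D-type cyclins with CDK4 and CDK6 start the phosphorylation of RB in G1, E-type cyclins with CDK2 continue it, and RB then releases E2F factors, which switch on genes of DNA synthesis. INK4 inhibitors bind CDK4 and CDK6, CIP/KIP inhibitors bind cyclin-CDK complexes, and later in the cycle A- and B-type cyclins with CDK1 drive mitosis, held back by WEE1 and PKMYT1 and released by CDC25 phosphatases. In luminal breast cancer cells cyclin D1 transcription responds to estrogen, and drugs against CDK4 and CDK6 are used in estrogen receptor-positive disease.

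Libraries held 30970218 to 36878525 counts in exposed cells and 34696540 to 36024874 in control cells. The 51 genes took 0.256% to 0.260% of the counts in exposed libraries and 0.280% to 0.283% in control libraries. Library values correlated across genes at Pearson's r of 0.994 to 0.995 within a group and 0.976 to 0.980 between groups (log2 CPM; genes are not independent replicates). By this correlation no library stood apart from its group. Of 9 luminal markers all were expressed, and their summed level was 8122 to 10136 CPM (read counts scaled to library size) in exposed and 19209 to 21079 CPM in control libraries. Within that list 6 genes fell, among them the estrogen receptor gene ESR1, at 67.1 ± 3.45 CPM in exposed and 167 ± 12.2 CPM in control cells (SD, n = 3 each), whereas GATA3, CDH1 and EPCAM did not pass the test. Markers of basal epithelium summed to at most 0.677 CPM in exposed and 0.429 CPM in control libraries, and those of endothelium to at most 0.236 CPM in exposed and 0.412 CPM in control libraries. PTPRC, the general leukocyte marker, was at 0.173 ± 0.105 CPM in exposed and 0.0911 ± 0.0604 CPM in control cells (n = 3 each). The fibroblast list summed to 71.7 to 75.5 CPM in exposed and 61.0 to 69.3 CPM in control libraries, mostly from COL1A1, which did not pass, while the much lower COL1A2 rose by 0.96 on the log2 scale, with DCN and LUM at most 0.217 CPM on average in either group. The part of these markers in the results below was not tested.

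Of the 50 regulators tested, 13 were higher and 21 lower in exposed cells at an adjusted p under 0.05 (edgeR's quasi-likelihood test, Benjamini-Hochberg adjustment over all tested genes), and 16 did not pass. The higher share of 26.0% stands beside a background of 21.8% of all tested genes, and the lower share of 42.0% beside 22.1%. In either direction 68.0% passed, against 43.9% of all tested genes. Well-expressed genes pass more often: above the median mean CPM 55.8% of tested genes passed, as did 25 of the 36 regulators in that range. The median log2 fold change was -0.12 over the regulators and -0.02 over all tested genes. CPM ranges of exposed and control libraries did not overlap for 35 of the 50, against 51.9% of tested genes.

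A change of at least 1.5-fold was reached by 7 regulators that rose and 9 that fell. These 16 make up 32.0% of the regulators, beside 20.1% of all tested genes (8.96% higher and 11.2% lower). The falls were those of CCND1, CDC25A, CCNE1, E2F2, E2F7, CCNE2, TFDP1, CCNF and CCNB1, and the rises those of CDKN1B, CDKN2D, CDKN2B, LIN54, WEE1, LIN52 and CDC25B. Against the stricter question of whether a change exceeded 1.5-fold, 2 passed in each direction, the CDK inhibitors CDKN1B and CDKN2D upward and the cyclin CCND1 and the phosphatase CDC25A downward. That share of 4.0% in each direction is close to the background of 4.12% higher and 4.52% lower over all tested genes. Because the RNA is bulk, fewer cells in a given cycle phase and less RNA per cell cannot be told apart in any of these values.

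**Figure D1:**
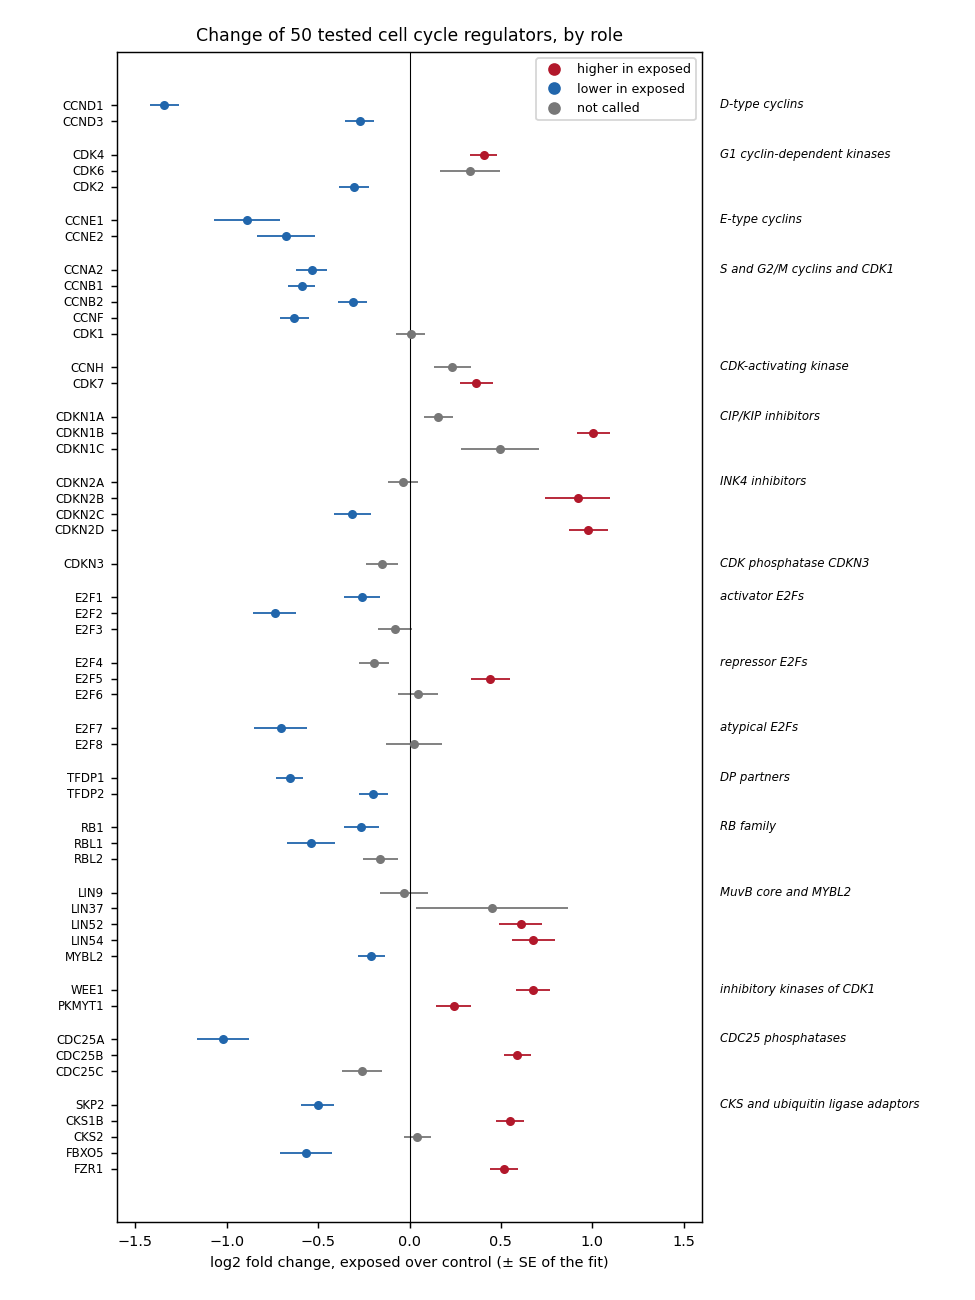
Log2 fold change of exposed over control cells (x axis, ± SE of the fit) for the 50 tested regulators, grouped by role. Red points were higher, blue points lower and grey points not called at an adjusted p under 0.05 (edgeR). CCND1 lies farthest to the left at -1.34 and CDKN1B farthest to the right at 1.01.

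Among the D-type cyclins, the regulatory subunits of CDK4 and CDK6, CCND1 (ENSG00000110092, GRCh38 chromosome 11, 69641087 to 69654474, plus strand) changed most. Its level was 43.3, 43.9 and 44.3 CPM in exposed replicates 1 to 3, against 113, 103 and 118 CPM in control replicates 1 to 3. The exposed libraries lay within 1 CPM of each other and far below every control library. The difference was 2.54-fold lower in exposed cells, a log2 fold change of -1.34 ± 0.08 (SE; edgeR, adjusted p = 5.1e-15). Exons of CCND1 overlap LTO1 on the opposite strand over 10.3% of their length. LTO1 itself had a log2 fold change of -0.12 and did not pass.

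CCND3, which serves the same kinases, fell less, at 67.4, 67.4 and 67.0 CPM in exposed and 73.6, 87.7 and 82.6 CPM in control libraries, a log2 fold change of -0.27 ± 0.08 (edgeR, adjusted p = 0.0059). The groups did not overlap, though the lowest control library was close to the exposed ones. CCND2 was almost silent, with 2, 4 and 2 counts in exposed and 2, 1 and 2 counts in control libraries, and was not tested. The order of the expressed D cyclins differed between the groups: per kb of exon CCND1 stood at 9.08 ± 0.10 and CCND3 at 11.6 ± 0.04 CPM per kb in exposed cells, against 23.0 ± 1.5 for CCND1 and 14.01 ± 1.2 for CCND3 in control cells (SD, n = 3 each). The count of CCND1 over that of CCND3 was 0.643, 0.652 and 0.662 in exposed libraries and 1.53, 1.18 and 1.42 in control libraries. These ratios do not overlap, and an exact two-sided permutation test over the 6 libraries gave p = 0.1, the smallest that 3 against 3 allows. This ratio was chosen after the values were seen.

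Of the kinase partners of the D cyclins, CDK4 rose and CDK6 did not pass. CDK4 had 223, 203 and 207 CPM in exposed against 153, 168 and 157 CPM in control libraries. Every exposed library exceeded every control library, and the log2 fold change was 0.41 ± 0.07 (edgeR, adjusted p = 3.7e-05). Exons of CDK4 share 43.2% of their length with TSPAN31 on the opposite strand, which rose by 0.54 on the log2 scale. With the strand setting not given, reads of that stretch cannot be told apart. CDK6, the other kinase of D cyclins, was at 5.01, 5.72 and 6.79 CPM in exposed and 4.82, 4.09 and 5.02 CPM in control libraries. Its groups overlapped, and it did not pass (log2 fold change 0.33 ± 0.17, edgeR adjusted p = 0.11), but without exposed replicate 1 it did (adjusted p = 0.0498; 0.0498 to 0.37 over the alternatives other than the 1.5-fold test). Per kb, CDK4 was at 66.6 ± 3.4 and CDK6 at 0.476 ± 0.073 CPM per kb in exposed cells, and at 50.3 ± 2.5 and 0.379 ± 0.040 in control cells, so CDK4 made up nearly all of the pair in both groups. CDK2, the partner of E- and A-type cyclins, fell slightly, at -0.30 ± 0.08 on the log2 scale.

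Both E-type cyclins, which activate CDK2 at the start of S phase, fell. CCNE1 was at 4.004, 3.72 and 2.63 CPM in exposed against 7.02, 6.88 and 5.21 CPM in control libraries, and CCNE2 at 3.92, 4.14 and 5.30 CPM in exposed against 6.78, 7.89 and 6.69 CPM in control libraries. For neither gene did the groups overlap, although replicate 3 of both groups was low for CCNE1. The log2 fold changes were -0.89 ± 0.18 for CCNE1 and -0.68 ± 0.16 for CCNE2 (edgeR, adjusted p = 1.6e-04 and 9.0e-04). Exons of CCNE2 overlap INTS8, on the opposite strand, over 37.0% of their length. INTS8 had 1237 counts per library on average, against 204 for CCNE2, and a log2 fold change of -0.01.

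**Figure D2:**
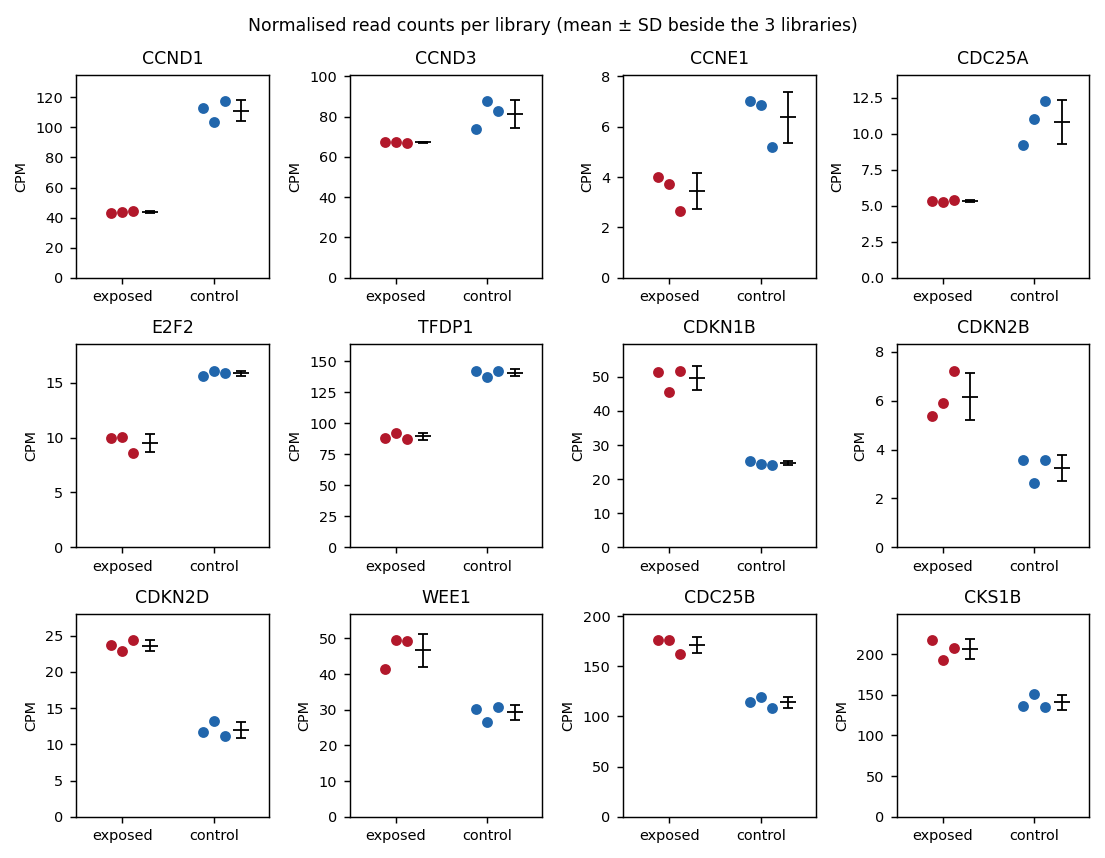
Normalised read counts (CPM, y axis from 0) of 12 regulators in each exposed library (red) and control library (blue), with the group mean ± SD in black (n = 3 each). CCND1, CCND3, CCNE1, CDC25A, E2F2 and TFDP1 are lower and the other 6 higher in exposed cells, and in none of the 12 panels do the groups overlap.

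Of the cyclins of S phase, G2 and mitosis, all 4 fell, whereas their kinase CDK1 did not pass. CCNB1, the main mitotic cyclin, was at 146, 144 and 136 CPM in exposed and 209.7, 216 and 215 CPM in control libraries. CCNF, a cyclin that acts in a ubiquitin ligase and is not known to activate a CDK, was at 54.4, 49.5 and 52.6 CPM in exposed and 84.8, 82.5 and 75.0 CPM in control libraries. For both genes all exposed libraries were below all control libraries, with log2 fold changes of -0.59 ± 0.07 for CCNB1 and -0.63 ± 0.08 for CCNF (edgeR, adjusted p = 4.9e-08 and 1.2e-07). CCNA2, which serves CDK2 in S phase and CDK1 in G2, was at -0.54 ± 0.09 and CCNB2, a further mitotic cyclin, at -0.31 ± 0.08. CDK1 had 79.3, 82.9 and 93.0 CPM in exposed and 87.3, 79.0 and 87.7 CPM in control libraries. The groups overlapped throughout, and the log2 fold change was 0.01 ± 0.08 (edgeR, adjusted p = 0.96), with a sign that changed between alternatives.

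The promoters of this group are shown because the E2F and MuvB members of the gene set bind such sequences: E2F and DP factors bind an E2F site, and LIN54 binds the cell cycle homology region (CHR), while CCAAT boxes, bound by NF-Y, often lie upstream of a CHR. Each run gives the 150 bases before the start listed by RefSeq (GRCh38.p14), read 5′ to 3′ along the gene. Capitals mark matches on either strand to an E2F motif (TTTCGCGC, TTTGGCGC, TTTCCCGC or TTTGGCGG), a CHR motif (TTTGAA or TTTAAA) or CCAAT. CCNB1 lies at chr5:69167000-69167149 and CCNB2 at chr15:59104996-59105145. CCNF lies at chr16:2429297-2429446 and CDK1 at chr10:60778328-60778477, all on the plus strand. For CDK1, with 2 listed starts, the later is shown, since its E2F match lies before the start. For each of these genes GENCODE lists a gene start further upstream, which lies inside the run shown. It is at 69167010 for CCNB1, 59105078 for CCNB2, 2429394 for CCNF and 60778331 for CDK1. By that annotation most of the CCNB1 and CDK1 runs, with all their marked matches, lies after the gene start. Calling these bases promoter sequence therefore rests on the RefSeq starts.
CCNB1: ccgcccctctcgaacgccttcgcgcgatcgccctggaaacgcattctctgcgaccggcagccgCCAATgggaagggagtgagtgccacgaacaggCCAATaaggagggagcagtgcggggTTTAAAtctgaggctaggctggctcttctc
CCNB2: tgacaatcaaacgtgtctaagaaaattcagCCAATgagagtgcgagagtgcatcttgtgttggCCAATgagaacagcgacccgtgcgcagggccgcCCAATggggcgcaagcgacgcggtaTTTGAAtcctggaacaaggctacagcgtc
CCNF: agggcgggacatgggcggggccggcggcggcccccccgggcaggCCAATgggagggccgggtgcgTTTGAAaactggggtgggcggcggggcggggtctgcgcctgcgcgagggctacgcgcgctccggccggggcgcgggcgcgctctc
CDK1: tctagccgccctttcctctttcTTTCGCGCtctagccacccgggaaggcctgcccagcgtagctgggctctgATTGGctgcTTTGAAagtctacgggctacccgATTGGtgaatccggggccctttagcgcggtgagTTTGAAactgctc
The 3 promoters shown of cyclins that fell each hold a CHR match, 1 to 3 CCAAT matches and no E2F match in these windows. That of CCNA2, which also fell but is not shown, holds a CCAAT match 56 bases before its start and no CHR or E2F match. That of CDK1, which did not pass, holds 1 E2F match, 2 CHR matches and 2 CCAAT matches in the run shown. In windows of 300 bases, 250 before and 50 after a start, an E2F match was present in 3.35% of all 35116 RefSeq promoters and in 10 of 66 promoters of the 42 regulators listed there. A CHR match was present in 24.0% of all promoters and in 26 of the 66, and CCAAT in 34.6% and in 27 of the 66. By gene, at least 1 start held an E2F match in 1 of 10 regulators that rose, 6 of 18 that fell and 2 of 14 that did not pass, beside 4.05% of all 27305 symbols listed. A CHR match was held by 6 of 10 that rose, 6 of 18 that fell and 9 of 14 that did not pass, beside 27.9% of all symbols. CCAAT was held by 5 of 10 that rose, 11 of 18 that fell and 7 of 14 that did not pass, beside 39.7%. A match describes letters only, and TTTAAA reads alike on both strands.

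In the CDK-activating kinase, which phosphorylates the activation loop of CDKs and belongs to transcription factor TFIIH, 1 of 2 regulators passed. The catalytic subunit CDK7 rose by 0.37 ± 0.09 on the log2 scale, whereas its cyclin CCNH had 0.23 ± 0.10 and did not pass (edgeR, adjusted p = 0.060), although its groups did not overlap.

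CDKN1B (ENSG00000111276, GRCh38 chromosome 12, 12715058 to 12722371, plus strand), which encodes the CIP/KIP inhibitor p27, had the largest rise of the 50. It was at 51.4, 45.6 and 51.9 CPM in exposed and 25.4, 24.6 and 24.1 CPM in control libraries. Every exposed library lay well above the controls, which differed little from each other. The rise was 2.01-fold, a log2 fold change of 1.01 ± 0.09 (SE; edgeR, adjusted p = 7.9e-11). The related inhibitor gene CDKN1A, a p53 target that encodes p21, was at 110.2, 99.6 and 105 CPM in exposed and 90.2, 104 and 88.5 CPM in control libraries. Its groups overlapped through control replicate 2, and it did not pass (log2 fold change 0.16 ± 0.08, edgeR adjusted p = 0.11). Without control replicate 2 it passed at 0.24 on the log2 scale (adjusted p = 0.0078; 0.0078 to 0.38 over the alternatives other than the 1.5-fold test). The third gene of the family, CDKN1C, an imprinted inhibitor, was at 4.36 ± 0.946 CPM in exposed and 3.10 ± 1.003 CPM in control cells (SD, n = 3 each), with 0.50 ± 0.21 on the log2 scale (adjusted p = 0.061). It passed without exposed replicate 2 (adjusted p = 0.015) or control replicate 2 (0.0063), over a range of 0.0063 to 0.35 in the same alternatives.

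The INK4 inhibitors of CDK4 and CDK6 moved apart. CDKN2D (ENSG00000129355, GRCh38 chromosome 19, 10566462 to 10569059, minus strand), which encodes p19 of this family, was at 23.7, 22.8 and 24.4 CPM in exposed and 11.7, 13.2 and 11.1 CPM in control libraries. CDKN2B (ENSG00000147883, GRCh38 chromosome 9, 22002903 to 22009363, minus strand), which encodes p15 and is known as a target of TGF-beta signalling, was at 5.36, 5.91 and 7.24 CPM in exposed and 3.56, 2.65 and 3.57 CPM in control libraries. In both genes the groups were apart, with rises of 1.97-fold for CDKN2D and 1.89-fold for CDKN2B (log2 0.98 ± 0.11 and 0.92 ± 0.18; edgeR, adjusted p = 6.3e-09 and 8.5e-05). CDKN2C, which encodes p18, fell by 0.31 on the log2 scale (edgeR, adjusted p = 0.013). That call ended without exposed replicate 2 (adjusted p = 0.086) or control replicate 2 (0.091). Here and below a range is that of the adjusted p over the alternatives other than the 1.5-fold test, and for CDKN2C it was 0.0079 to 0.091. CDKN2A, whose counts pool the transcripts of p16 and ARF, was abundant in both groups, at 67.3 ± 5.19 CPM in exposed and 69.0 ± 4.39 CPM in control cells (n = 3 each), and did not pass (log2 fold change -0.04). CDKN2A and CDKN2B lie next to each other on chromosome 9, and only CDKN2B passed; the difference between their changes was not tested. CDKN3, a phosphatase that acts on CDKs, had -0.15 ± 0.09 and did not pass.

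E2F2 (ENSG00000007968, GRCh38 chromosome 1, 23506430 to 23531220, minus strand) fell most among the activator E2Fs, which switch on genes of DNA synthesis. It was at 9.95, 10.1 and 8.57 CPM in exposed and 15.6, 16.1 and 15.9 CPM in control libraries, without overlap (log2 fold change -0.74 ± 0.12, edgeR adjusted p = 4.7e-06). E2F1 was at 73.6, 67.9 and 63.4 CPM in exposed and 70.7, 98.2 and 76.6 CPM in control libraries. Control replicate 2 stood above the other 5 libraries, and the groups overlapped. The log2 fold change of E2F1 was -0.26 ± 0.10 (edgeR, adjusted p = 0.030). Its call ended without exposed replicate 2 (adjusted p = 0.064), exposed replicate 3 (0.17) or control replicate 2 (0.29), where the log2 fold change was -0.11, over a range of 0.0030 to 0.29. E2F3 had -0.08 ± 0.09 and did not pass. Per kb, E2F1 was at 27.3 ± 2.0 CPM per kb in exposed and 32.7 ± 5.8 in control cells, well above E2F3 and E2F2, which were at 4.73 ± 0.21 and 1.75 ± 0.15 in exposed and 4.997 ± 0.12 and 2.91 ± 0.046 in control cells.

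The promoters of the activator E2Fs that fell are shown, and each holds an E2F match just before its listed start. That of E2F3, which did not pass and is not shown, also holds one, TTTCCCGC on the opposite strand, 53 bases before its start. It holds a CHR match 65 bases before the start as well. E2F1 lies at chr20:33686386-33686535 and E2F2 at chr1:23531234-23531383, both on the minus strand (RefSeq, GRCh38.p14). GENCODE puts the start of E2F1 at 33686404, inside the run shown, so most of its E2F match lies at or after that start. For E2F2 the GENCODE start, 23531220, lies downstream of the RefSeq start. The first 20 bases after the RefSeq start of E2F2 were in no GENCODE transcript of the gene. Capitals mark the same motifs as above.
E2F1: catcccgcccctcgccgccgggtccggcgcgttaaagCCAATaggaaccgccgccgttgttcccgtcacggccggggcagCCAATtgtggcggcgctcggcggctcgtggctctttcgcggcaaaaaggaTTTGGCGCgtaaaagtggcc
E2F2: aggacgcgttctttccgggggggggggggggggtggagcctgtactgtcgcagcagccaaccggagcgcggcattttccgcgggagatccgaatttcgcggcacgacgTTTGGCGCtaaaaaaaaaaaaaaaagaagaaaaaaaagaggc
The E2F match TTTGGCGC begins 20 bases before the RefSeq start in E2F1 and 42 bases before it in E2F2, and neither window holds a CHR match. Among the other regulators, TTTGGCGC also begins 44 bases before the RefSeq start of CDC25A and 16 bases before that of RBL1.

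Of the E2Fs known mainly as repressors, E2F5 rose by 0.44 ± 0.11 on the log2 scale, and its exons share 16.3% of their length with a gene on the opposite strand that did not pass. E2F4, the most abundant of them per kb, was at 73.9 ± 6.06 CPM in exposed and 84.6 ± 5.85 CPM in control cells (n = 3 each) and missed the threshold (log2 fold change -0.20 ± 0.08, edgeR adjusted p = 0.0502). It passed without exposed replicate 1 (adjusted p = 0.019) or control replicate 1 (0.023), over a range of 0.019 to 0.23. E2F6, which represses without binding RB, was at 0.05 ± 0.11. The atypical repressor E2F7 fell: it was at 6.65, 6.43 and 10.3 CPM in exposed and 12.6, 12.8 and 12.8 CPM in control libraries. Exposed replicate 3 was above the other exposed libraries but below the controls, and the log2 fold change was -0.70 ± 0.14 (edgeR, adjusted p = 1.8e-04). Its paralog E2F8 was at 0.02 ± 0.15, with a sign that changed between alternatives.

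TFDP1, the main dimer partner of E2Fs, was at 88.4, 92.5 and 87.0 CPM in exposed and 142, 137 and 142 CPM in control libraries. The gap between the groups was many times the spread within them, and the log2 fold change was -0.65 ± 0.07 (edgeR, adjusted p = 9.5e-09). TFDP2, the other partner, had -0.20 ± 0.08 (adjusted p = 0.045), and its call ended without any one library except control replicate 2 (adjusted p from 0.098 to 0.15). Over all alternatives other than the 1.5-fold test its adjusted p ran from 0.016 to 0.15.

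Among the RB family, which holds E2Fs inactive, RB1 was at 27.0, 33.3 and 28.8 CPM in exposed and 36.7, 32.7 and 37.5 CPM in control libraries. The groups overlapped through replicate 2 of each. RB1 had a log2 fold change of -0.26 ± 0.10 (edgeR, adjusted p = 0.026), and its call ended without exposed replicate 1 (adjusted p = 0.15), exposed replicate 3 (0.12), control replicate 1 (0.080) or control replicate 3 (0.12), over a range of 0.0061 to 0.15. RBL1, which encodes p107 and is itself an E2F target, fell by 0.54 on the log2 scale (SE 0.13), without overlap. RBL2, which encodes p130, the RB relative of resting cells, had -0.16 ± 0.09 and did not pass (adjusted p = 0.17), except without control replicate 2 (adjusted p = 0.017, range 0.017 to 0.48).

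Of the members of the MuvB core, which joins RBL2 and E2F4 in the repressive DREAM complex of resting cells and MYBL2 in cycling cells, 2 of 4 rose and the other 2 did not pass, while MYBL2 fell. LIN54, its DNA-binding subunit, was at 15.4, 17.2 and 15.8 CPM in exposed and 10.6, 8.95 and 10.6 CPM in control libraries. LIN52, the subunit that docks the RB relatives, was at 13.9, 16.2 and 14.3 CPM in exposed and 9.51, 10.2 and 9.44 CPM in control libraries. Both rose without overlap of the groups, by 0.68 ± 0.12 and 0.61 ± 0.12 on the log2 scale (edgeR, adjusted p = 1.8e-05 and 8.8e-05). LIN9 had -0.03 ± 0.13, and LIN37, with 20 to 32 counts in exposed and 14 to 29 in control libraries, had 0.45 ± 0.42. Neither passed. MYBL2, one of the most abundant genes of the set, was at 287 ± 11.8 CPM in exposed and 331 ± 20.4 CPM in control cells (n = 3 each), or -0.21 ± 0.07 on the log2 scale (edgeR, adjusted p = 0.023). Its call ended without exposed replicate 2 (adjusted p = 0.076), exposed replicate 3 (0.17) or control replicate 2 (0.065), over a range of 0.018 to 0.17. Counting the 1.5-fold test, the call of MYBL2 was lost in 5 of the 14 alternatives.

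Both kinases that hold CDK1 inactive by phosphorylation rose. WEE1, the nuclear one, was at 41.3, 49.5 and 49.2 CPM in exposed and 30.3, 26.7 and 30.7 CPM in control libraries, well apart, with a log2 fold change of 0.68 ± 0.09 (edgeR, adjusted p = 5.5e-07). PKMYT1, the membrane-bound one, was at 59.7 ± 3.79 CPM in exposed and 50.5 ± 8.32 CPM in control cells (n = 3 each) with overlapping groups, and at 0.24 ± 0.09 on the log2 scale (edgeR, adjusted p = 0.039). Its call ended without exposed replicate 1 (adjusted p = 0.12), exposed replicate 2 (0.063), control replicate 1 (0.27) or control replicate 3 (0.14), over a range of 2.7e-04 to 0.27. Exons of PKMYT1 share 24.5% of their length with PAQR4 on the opposite strand, which fell by 0.34 on the log2 scale.

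The CDC25 phosphatases, which remove those inhibitory phosphates, did not move together: CDC25A fell, CDC25B rose and CDC25C did not pass. CDC25A (ENSG00000164045, GRCh38 chromosome 3, 48157146 to 48188402, minus strand), which acts on CDK2 at the entry to S phase as well as on CDK1, was at 5.36, 5.27 and 5.38 CPM in exposed and 9.22, 11.03 and 12.3 CPM in control libraries. Exposed libraries were nearly identical, and all lay below the controls, 2.03-fold lower (log2 fold change -1.02 ± 0.14, edgeR adjusted p = 4.8e-07). CDC25B, which acts at the entry to mitosis, was at 176, 176 and 162 CPM in exposed and 114, 119 and 108 CPM in control libraries. It was higher in every exposed library, by 0.59 ± 0.07 on the log2 scale (edgeR, adjusted p = 8.8e-08). CDC25C, the third, had -0.26 ± 0.11 without overlap of the groups and just missed the threshold (adjusted p = 0.056).

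SKP2, the F-box protein through which the SCF ubiquitin ligase marks p27 for destruction, fell by 0.50 on the log2 scale (SE 0.09), at 31.4 ± 1.73 CPM in exposed and 44.5 ± 3.79 CPM in control cells (n = 3 each). CKS1B, the small cofactor that SKP2 needs for p27, rose by 0.55 ± 0.08, at 206 ± 12.4 CPM in exposed and 141 ± 9.39 CPM in control cells (n = 3 each). CKS1B has 6 pseudogenes in the table, which together averaged 136 counts against its own 6014, so reads could be shared. Its paralog CKS2, the highest of the set per kb, was at 171 ± 11 CPM per kb in exposed and 166 ± 5.0 in control cells (n = 3 each) and did not pass. FZR1, the activator of the anaphase-promoting complex in G1, rose by 0.52 ± 0.08, whereas FBXO5, the inhibitor of that complex, fell by 0.57 (log2, SE 0.14), both without overlap of the groups.

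**Figure D3:**
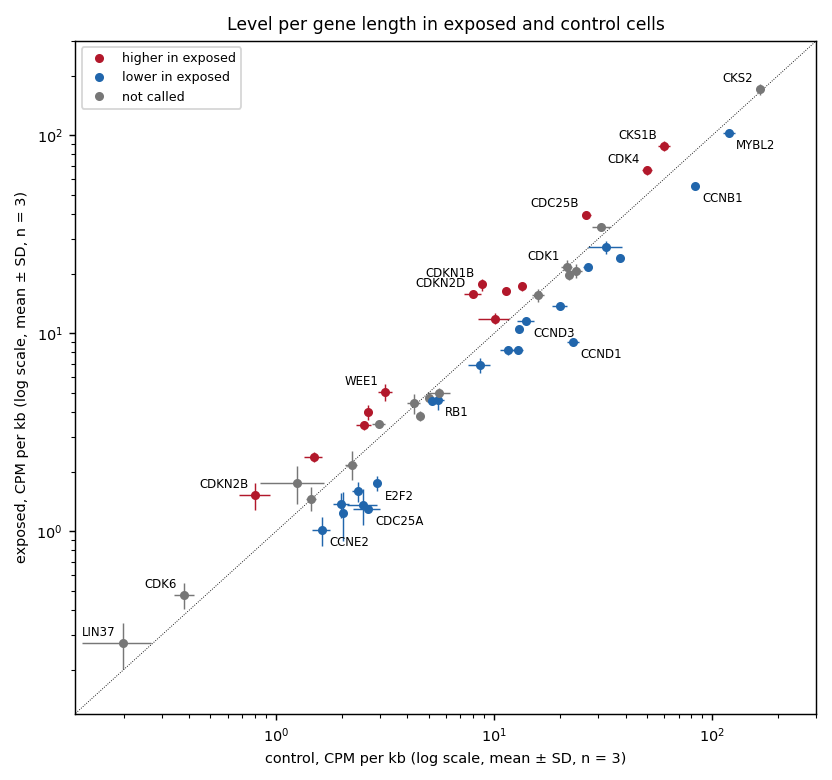
Level per gene length in control cells (x axis) and exposed cells (y axis), in CPM per kb of exon on log scales, as mean ± SD of 3 libraries per group, for the 50 tested regulators. Points above the dotted line of equality are higher in exposed cells. CDKN1B and CDKN2D lie above it and CCND1 and CDC25A below it, and levels ran from LIN37 at 0.272 in exposed and 0.198 in control cells to CKS2 at 171 in exposed and 166 in control cells.

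Other cell cycle genes were counted in lists chosen by role, to be read against the 21.8% of all tested genes called higher, the 22.1% called lower and the 43.9% called in either direction. Of 18 G1/S genes that E2Fs are known to control, 16 fell (88.9%) and 2 rose (11.1%), with a median log2 fold change of -0.70 beside -0.02 over all tested genes. UHRF1, which maintains DNA methylation, was at 20.6 ± 1.096 CPM in exposed and 63.3 ± 5.19 CPM in control cells (n = 3 each), a log2 fold change of -1.62 ± 0.09. The helicase subunits MCM6 and MCM3 stood at -1.27 and -0.87. The genes that rose were CDT1, a replication licensing factor, at 0.64 ± 0.08 and SLBP, which binds histone mRNA, at 0.21 ± 0.08. With exposed replicate 2, exposed replicate 3, control replicate 1 or control replicate 3 left out, 1 gene of the list was higher. A block on the replicate number also left 1 higher.

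Of 18 G2/M genes, 10 fell, none rose and 8 did not pass, with a median of -0.30. The share that fell was 55.6%, beside 22.1% of all tested genes. The mitotic kinesin KIF20A was at 38.4 ± 0.373 CPM in exposed and 73.9 ± 6.31 CPM in control cells (n = 3 each). The proliferation marker MKI67, the centromere protein CENPF and the survivin gene BIRC5 were at -0.85, -0.86 and -0.55 on the log2 scale. The mitotic kinases PLK1, at -0.09, and NEK2, at -0.01, did not pass.

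Among 10 tested RB and MuvB partners 3 rose and 5 fell, beside 21.8% of all tested genes called higher and 22.1% called lower. DYRK1A, the kinase that phosphorylates LIN52, rose by 0.79 ± 0.08 on the log2 scale, at 61.0 ± 2.48 CPM in exposed and 35.4 ± 1.61 CPM in control cells (n = 3 each). MYB, a paralog of MYBL2, had -2.27 ± 0.15, at 4.51 ± 1.23 CPM in exposed and 21.8 ± 2.48 CPM in control cells (n = 3 each). The histone-binding protein RBBP7 and the deacetylase HDAC1 were at -0.63 and -0.52. FOXM1, the partner of MuvB in G2, had -0.05 ± 0.07 and did not pass.

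Among 17 genes of the anaphase-promoting complex and its partners 3 rose and 4 fell, with a median of 0.04. The share called, 41.2%, was close to the background of 43.9%. Its subunits ANAPC7, ANAPC2 and ANAPC1 were at -0.49, -0.46 and -0.45, and the mitotic activator CDC20 was at 0.29. Without exposed replicate 3 or control replicate 3, or with a block on the replicate number, 1 of these genes was higher. Of 11 genes of the SCF ligase and of cyclin turnover 2 rose and 3 fell, and the share called, 45.5%, was also close to the background of 43.9%. AMBRA1, the ligase receptor through which D cyclins are degraded, rose by 0.61 ± 0.08, at 99.9 ± 7.74 CPM in exposed and 65.7 ± 2.92 CPM in control cells (n = 3 each). FBXO31, another F-box protein linked to cyclin D1, was at 0.39, and CUL1, the scaffold of the SCF ligase, at -0.42. Without control replicate 1, 1 gene of this list was lower.

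Of 13 checkpoint and mitotic entry genes 1 rose and 4 fell, which were the checkpoint kinases CHEK2 and ATR at -0.48 and -0.44, the kinase chaperone CDC37 at -0.26 and the mitotic entry factor BORA at -0.64. The share called was 38.5%, below the background of 43.9%. The gene that rose, MASTL, at 0.27, did not pass without exposed replicate 2, exposed replicate 3, control replicate 2 or control replicate 3. Nor did it pass with no low-count filter or with a block on the replicate number, while DESeq2 called 2 genes of the list higher. Without exposed replicate 3, 2 genes were lower. Of 19 tested other cyclins 6 rose and 2 fell, and the share called, 42.1%, was close to the background of 43.9%. CCNJL rose most, at 31.8 ± 3.57 CPM in exposed and 12.9 ± 0.958 CPM in control cells (n = 3 each), and CCNI stood at 0.67 and CCNI2 at -0.97. Without control replicate 3, 3 of these cyclins were higher. Of 15 tested other CDKs 4 rose and 1 fell, so that 33.3% were called, below the background of 43.9%. Among them were CDK14 at -1.05 and the transcriptional kinase CDK12 at 0.35. Of these CDKs 2 were higher without control replicate 3.

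**Figure D4:**
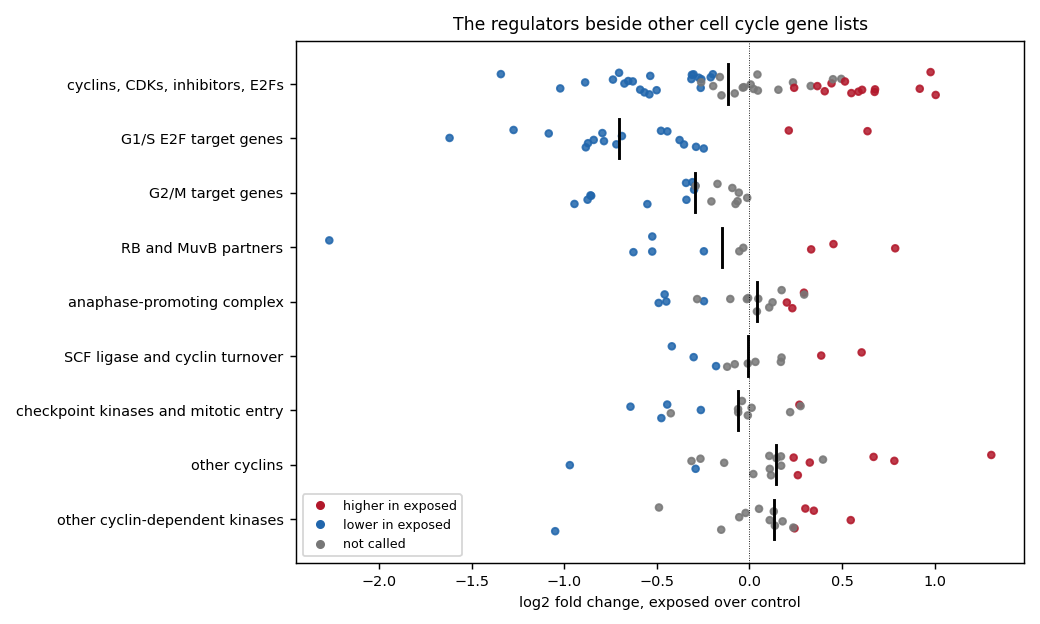
Log2 fold change of exposed over control cells (x axis) for each tested gene of the 50 regulators and of 8 other cell cycle lists. Black bars are medians, at -0.12 for the regulators, -0.70 for the G1/S targets and -0.30 for the G2/M targets, and colours give the call at an adjusted p under 0.05 (edgeR).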

How the data were processed

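RNA of 6 T47D libraries was sequenced on an Illumina NovaSeq after TRIzol extraction, per the labels' protocols. The deposited values are whole-number read counts per gene, with a length per gene. The submitters' processing notes name the build GRCh38, and no source used here names the aligner, counter or strand setting. For all 51 genes described the length and coordinates equal those of GENCODE 29.

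Titles gave groups and replicate numbers. In edgeR 4.0.16 under R 4.3.3, genes passed filterByExpr (minimum count 10, minimum total 15) and were fitted with TMM scaling and a robust quasi-likelihood model without a replicate block. Benjamini-Hochberg adjustment ran over all 17337 genes tested, with a threshold of 0.05. The SE is the size of the log2 fold change divided by the root of its F. CPM uses TMM-scaled library sizes, and CPM per kb divides it by the deposited length. The procedure was tested on simulated data with upward and downward changes planted in a small share of genes, all of higher counts. That share was far below the share called in these data, so the simulation does not test the scaling at this setting. The biological coefficient of variation was 9.61%, and the chi-square per degree of freedom between libraries of a group was 7.68 to 16.4, so none was treated as a duplicate. In each group the pairs with replicate 2 had the higher values, 12.5 and 10.4 in exposed and 16.4 and 12.6 in control libraries.

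The 14 alternatives were RLE size factors, no filter, a minimum count of 50, DESeq2 1.42.0, limma-voom (limma 3.58.1), a block on the replicate number, 6 fits that leave out a library, a test against 1.5-fold, and protein-coding genes alone. Values in all libraries are given for regulators called with at least a 1.5-fold change and for CCND1, CDK4, CDK6, CCNE1, CDKN1A, CDKN1B, E2F1, RB1, CDK1 and CCNB1. Up to 4 genes of each other list were named by smallest adjusted p; CDT1, SLBP, MASTL, PLK1, NEK2, FOXM1 and the library values of CCND3 were added after their values were seen. Values of 2 list genes are not reported here. Members and lists were chosen with earlier results of these data known. RefSeq promoter tables matched 42 of 51 genes; of those eligible to be shown, E2F3 and CCNA2 were left out to keep to 6.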

Additional observations from a re-analysis of the deposited data

How the results depend on the processing

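Of the 34 regulators called, 28 kept their call under every alternative other than the test against a 1.5-fold change, and CDKN2C, E2F1, TFDP2, RB1, MYBL2 and PKMYT1 lost it under at least 1. Another 7, CDK6, CCNH, CDKN1A, CDKN1C, E2F4, RBL2 and CDC25C, passed under at least 1. No called regulator changed sign in any alternative. The test against 1.5-fold called 715 genes higher and 783 lower, and 2 regulators each way, because it asks for more than a difference from 0. Leaving out 1 library gave 12 to 15 regulators higher and 17 to 20 lower, and 3164 to 3860 genes higher and 3098 to 3777 lower. Signs changed only among regulators that did not pass. CDK1 was at -0.00085 with a minimum count of 50 and -0.00047 among protein-coding genes. Leaving out 1 library gave -0.044 to 0.060 for CDK1, -0.090 to 0.021 for CDKN2A, -0.044 to 0.13 for E2F8 and -0.16 to 0.054 for LIN9. The cause was not tested. With the replicate number as a block, 12 regulators were higher and 17 lower, and 3359 and 3420 genes. Same-numbered libraries correlated in their deviations at -0.13, -0.12 and 0.0047, and no library correlated best with its own number, so no sign of pairing by number was seen. Deviations from a mean of 3 libraries are tied to each other, so this check cannot exclude that same-numbered libraries were handled together. Scaling moved the median log2 fold change of all genes little, to -0.01 with size factors of the DESeq2 type. Low counts limit LIN37, whose SE was 0.42, and CCND2, which was not tested. LIN37 shares 26.7% of its exon length with AD000671.1 on the same strand and 41.8% with AD000671.3 on the opposite strand. How shared reads were counted is not given, and the part of this overlap in the low counts of LIN37 was not tested.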
